A study of Mus musculus with 6 samples.

Results

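The collagen chain genes of mouse osteoblast cultures were compared between control and verapamil libraries. Members were the rows of the deposited count table whose symbol reads Col, a type number, a and a chain number. This took in 44 of 17491 genes, of which 11 were fibrillar, 9 formed networks or basement membranes and 9 were FACIT (fibril-associated collagens with interrupted triple helices). A further 8 belonged to the beaded-filament group, 4 were transmembrane, 2 were multiplexins (basement membrane zone collagens with an interrupted helix) and 1 formed anchoring fibrils. The last 3 members fell outside the 5 classes of the selection rule and were kept apart. Both groups held wildtype mouse osteoblasts grown out of stromal stem cells (mesenchymal) from the marrow of tibia and femur. All cultures were taken through day 7 in osteogenic medium that held ascorbic acid (50 µg/mL), β-glycerophosphate (5 mM), dexamethasone and 15% serum. The 3 control libraries carried no drug label, and the other 3 came from cultures treated with verapamil, a blocker of L-type calcium channels. Dose, length of exposure, age and sex are not given in the labels, nor is it stated whether replicates were separate cultures, so p-values measure the spread between these libraries, which may be technical.

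Collagens are trimers of chains that wind into a triple helix, a fold that needs glycine at regular steps along each chain. Chains are hydroxylated and folded in the endoplasmic reticulum, secreted, trimmed of their end peptides and cross-linked outside the cell. Fibrillar collagens build the tensile fibres of bone, tendon and cartilage, and osteoblasts are known for laying down type I collagen as the scaffold that later mineralises. Other classes form sheets under cell layers, coat fibre surfaces, link cells to fibres or span the cell membrane.

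Libraries held 18.2 M to 21.7 M estimated reads. Control replicate 2 stood apart in a list of 10 hypoxia-response genes, 8 of them lower with verapamil, whose mean was 6.35 log2 CPM there, 5.55 and 4.88 in control replicates 1 and 3, and 3.90 to 4.2 with verapamil. Osteoblast markers were present in every library. With verapamil 9 of 10 were lower, and the list's median log2 fold change of verapamil over control was -1.03. They summed to 17389 to 19366 CPM in controls and 14711 to 16526 CPM with verapamil. These sums came mostly from Ibsp and from Spp1, the marker that did not pass (means of 9785 CPM in controls and 11651 CPM with verapamil). Macrophage markers were present too and 9 of 12 were higher, with sums of 9360.1 to 11760.2 CPM and 16749 to 18883 CPM. Of 8 endothelial markers 4 were lower, with sums of 59.9 to 66.0 CPM and 49.4 to 50.9 CPM. Smooth muscle and pericyte markers, 4 of 8 of them lower, summed to 1790.0 to 2404 and 1489 to 1576 CPM. The other 4 did not pass and went both ways. Rgs5 (log2 fold change 1.03) and Myh11 (0.49) lay higher in every verapamil library, and Tagln (-0.44) and Cnn1 (-0.48) lower. Adipocyte markers summed to 207 to 249 and 268 to 297 CPM, with 1 lower and 2 higher of 4 tested, and the 5 epithelial markers in the table to at most 0.764 CPM in any library. Over all tested genes, 16.3% were lower and 15.4% were higher by the test given below. The part that the marker shifts play in the collagen values was not tested. In bulk RNA, fewer collagen-making cells and less collagen RNA per cell cannot be told apart.

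Every class held at least 1 collagen gene that was lower with verapamil, and none held a higher one. In the transmembrane class this was Col25a1 alone, which was tested because of its control level. Of 34 members with enough counts for testing, 26 were lower, 0 were higher and 8 did not pass edgeR's quasi-likelihood test at a Benjamini-Hochberg adjusted p under 0.05 (verapamil over control). Among all 13366 genes tested, 31.7% passed by the same rule, 16.3% as lower and 15.4% as higher. DESeq2 and limma-voom also gave 26 lower and 0 higher, and at an unadjusted p under 0.05 edgeR gave 26 lower and 0 higher. The median log2 fold change of the tested members was -0.96, against 0.01 over all tested genes. In 27 of the tested members every verapamil library lay below every control library, which held for 24.4% of all tested genes, and in 0 did they lie above, against 25.2%. A fall of at least 1 on the log2 scale that passed the test was seen in 15 members and in 2.87% of all genes. A member can pass the low-count filter through the group in which it is high. In 30 members the filter's level was reached in all 6 libraries, and 25 of these were lower, with a median of -0.98. Levels below are CPM (counts scaled to library size and TMM factors), fold changes are log2 values of verapamil over control with a standard error (SE), and groups have n = 3.

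**Figure D1:**
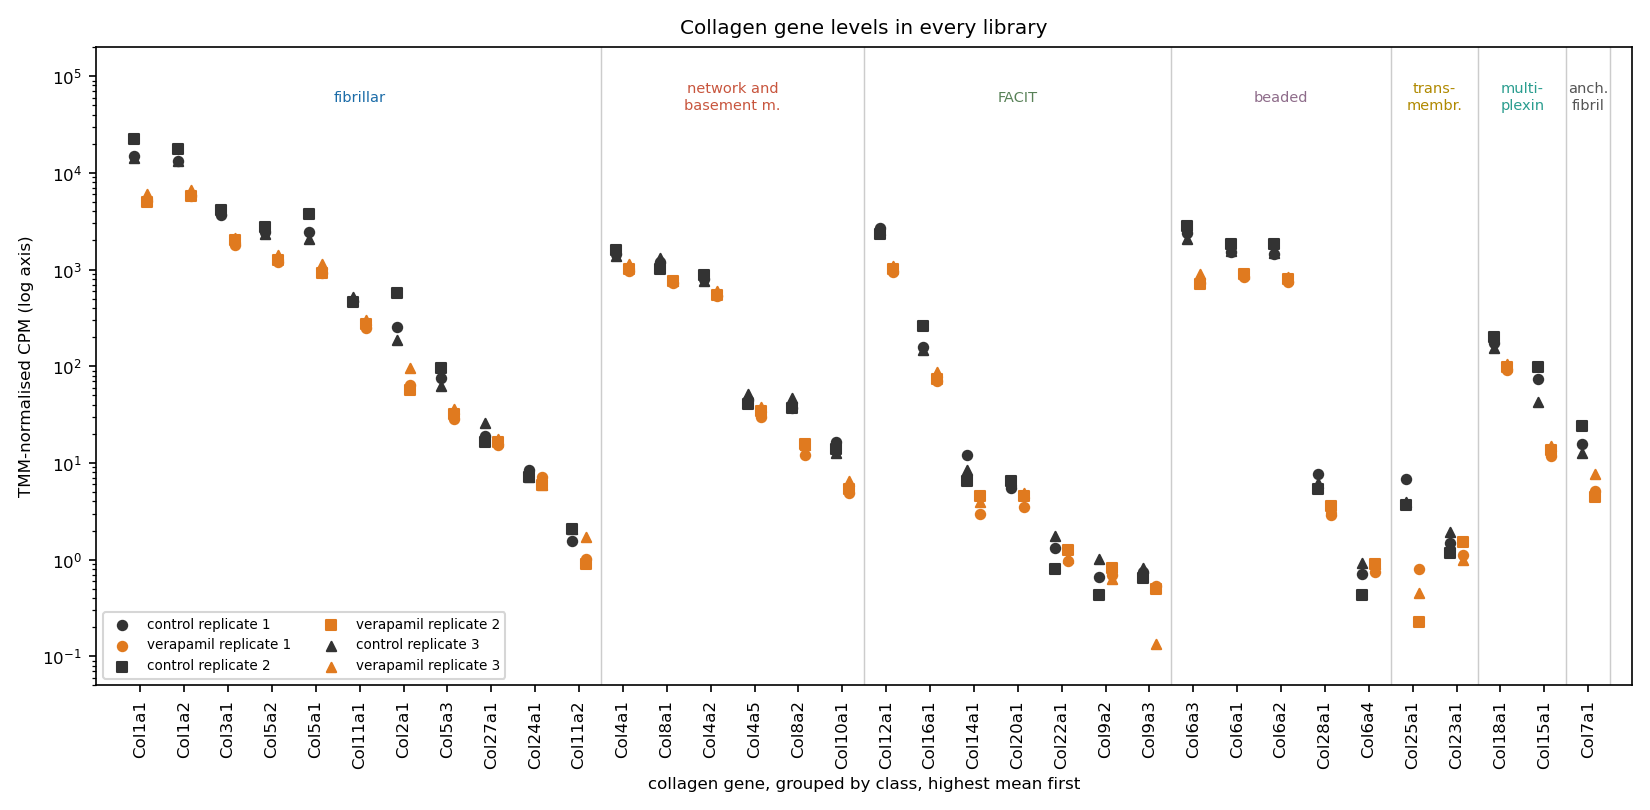
TMM-normalised CPM of the 34 tested collagen genes on a log axis, with 1 point per library, black for control and orange for verapamil, marker shape for the replicate number and genes grouped by class. In 27 genes all 3 orange points lie under all 3 black points, and type I chains Col1a1 and Col1a2 are the most abundant members in every library.

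Type I collagen, the main protein of bone matrix, is made of chains from Col1a1 and Col1a2. Col1a1 (Entrez 12842, chromosome 11, 94936224 to 94953042 in GRCm38) stood at 14854, 22178 and 14169.7 CPM in control replicates 1 to 3 and at 5124, 5028 and 6007 CPM in verapamil replicates 1 to 3. The groups were far apart, with control replicate 2 the highest library. Its log2 fold change was -1.66 ± 0.19 SE, adjusted p = 6.36e-04, a level 3.17-fold lower. Col1a2 (Entrez 12843, chromosome 6, 4505618 to 4541543) went from 13164, 17725 and 13152 CPM to 5694, 5727 and 6680.1 CPM (-1.28 ± 0.15 SE, adjusted p = 7.43e-04). By mean abundance Col1a1 and Col1a2 ranked 1 and 2 of all genes in control libraries, while their verapamil ranks were 10 and 7. Per kilobase of its longest coding transcript, Col1a1 had mean levels of 2878 and 908 CPM in control and verapamil libraries, and Col1a2 2745 and 1128 CPM.

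Part of the promoter of Col1a2, the more abundant chain of this protein in the verapamil libraries, is shown. RefSeq's promoter table matched 35 of the 44 members with 38 windows, and Col1a1 was not among these members. The 250 bases before each annotated start were searched on both strands. Capitals mark matches to any of 5 motifs on either strand. The motif CCAAT is bound by nuclear factor Y. The letters GGGCGG form the GC box. The motif TATAAA places the start of transcription. The core of hypoxia response elements reads ACGTG, and the RUNX site of osteoblast genes reads AACCACA. A match on the opposite strand shows as its reverse complement. Of each window shown, the stretch outside annotated exons is printed, here chr6:4505370-4505492 (plus strand, GRCm38.p6, from RefSeq), in which no matches overlap.
Col1a2: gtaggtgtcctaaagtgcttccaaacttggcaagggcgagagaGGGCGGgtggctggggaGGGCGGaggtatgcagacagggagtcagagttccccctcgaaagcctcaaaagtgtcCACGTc
This stretch held 2 GC boxes and 1 ACGTG core, and none of the other 3 motifs. It leaves out the part of the window nearest the start, and the whole 250-base window of Col1a2 also held CCAAT. Over the 38 member windows, 57.9% held a GC box, against 32.7% of all 32851 windows of that length. CCAAT was in 34.2% and 33.8%, TATAAA in 13.2% and 12.4%, ACGTG in 13.2% and 16.6%, and AACCACA in 2.63% and 4.40%. A match describes the letters of the window and is no evidence of a bound factor.

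Other fibrillar collagens were lower to unequal degrees. Col3a1, which forms type III fibrils alongside type I in soft tissues and marrow stroma, was at 3663, 4099 and 4083 CPM in controls and 1805, 2016 and 2121 CPM with verapamil (-1.0 ± 0.10 SE, adjusted p = 4.23e-04). Its 3 control values were close together, and so were the 3 verapamil values. Type V collagen starts type I fibrils and sets their diameter. Its chain gene Col5a1 fell from 2441, 3727 and 2062 to 924, 917 and 1130.1 CPM (-1.47 ± 0.22 SE, adjusted p = 0.00321), with control replicate 2 well above the other controls. Col5a2 had 2467, 2745 and 2309 CPM in controls and 1193, 1252 and 1407 CPM with verapamil (-0.97 ± 0.10 SE, adjusted p = 5.40e-04), with no such high library. Another type V chain gene, Col5a3, was far less abundant and fell from 78.0 ± 17.2 to 32.4 ± 4.02 CPM (-1.26 ± 0.17 SE, adjusted p = 0.00224). Col11a1, a chain of the type XI collagen that starts cartilage fibrils and also occurs in bone, went from 477, 467 and 525 to 248, 276 and 303 CPM (-0.83 ± 0.09 SE, adjusted p = 5.58e-04). Its fall was the smallest among the 8 fibrillar members that passed.

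Col2a1, which encodes the type II collagen of cartilage, had the deepest fall of the fibrillar class and the widest spread between controls relative to the mean. Control replicates 1 to 3 held 256, 573 and 186 CPM and verapamil replicates 1 to 3 held 63.6, 57.2 and 96.5 CPM (-2.22 ± 0.45 SE, adjusted p = 0.013). Control replicate 2 was more than the sum of the other controls, and even the lowest control lay above the highest verapamil library. Without control replicate 2 its log2 fold change was -1.61 (adjusted p = 0.0283), and without verapamil replicate 2 the gene did not pass (adjusted p = 0.0506). Markers of chondrocytes were low in the same libraries: the cartilage proteoglycan gene Acan had 0.329, 0 and 0.322 CPM in the controls and 0 in all verapamil libraries, and Matn1, Matn3, Cnmd and Chad were also too low for testing. The 8 markers summed to 67.5 to 84.9 CPM in controls and 40.9 to 41.6 CPM with verapamil, mostly from Comp. All 3 that could be tested, Sox9 (-0.78), Hapln1 (-3.09) and Comp (-0.85), were lower. Hapln1 had 3.76, 3.90 and 3.35 CPM in controls and 0.266, 0.271 and 0.719 CPM with verapamil. With a filter level of 0.462 CPM, Hapln1 was tested because of its control level. The part of the chondrocyte markers in the value of Col2a1 was not tested.

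Fibrillar members that did not pass were the scarce ones. Col27a1 stood at 19.1, 16.4 and 26.0 CPM and 15.4, 16.5 and 17.5 CPM, with overlapping groups (-0.32 ± 0.16 SE, adjusted p = 0.166). Without control replicate 2 it passed, with a log2 fold change of -0.46 (adjusted p = 0.0204). Col24a1, a minor collagen known from developing bone, gave 8.45, 7.1 and 7.07 CPM and 7.12, 5.86 and 5.97 CPM (-0.26 ± 0.13 SE, adjusted p = 0.156), again overlapping. Col11a2, the partner chain of Col11a1, had 1.55, 2.08 and 2.07 CPM and 1.01, 0.902 and 1.71 CPM (-0.64 ± 0.28 SE, adjusted p = 0.116), and passed without verapamil replicate 3 at a log2 fold change of -0.99 (adjusted p = 0.0439).

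Network collagens and basement membrane chains were lower too. All 6 tested members passed, with a median log2 fold change of -0.60, against -0.995 in the fibrillar class, and this difference between class medians was not tested. Col4a1 and Col4a2 encode the chains of the type IV network found under most cell layers. Col4a1 (Entrez 12826, chromosome 8, 11198423 to 11312889) was at 1438, 1577 and 1392 CPM in controls and 972, 1021 and 1143 CPM with verapamil (-0.49 ± 0.09 SE, adjusted p = 0.00511). Col4a2 (Entrez 12827, chromosome 8, 11312805 to 11449287) was at 796, 887 and 769.7 CPM and 537, 549 and 598 CPM (-0.54 ± 0.08 SE, adjusted p = 0.00213). In both genes the groups stood apart and control replicate 2 was the highest library. Col4a5, whose chain joins the type IV networks of kidney and muscle, gave 45.1, 40.5 and 51.5 CPM and 29.8, 34.1 and 38.2 CPM (-0.42 ± 0.11 SE, adjusted p = 0.0238), the smallest change that passed. Its call was lost when control replicate 1, verapamil replicate 1 or verapamil replicate 2 was left out, and with library totals as the scaling (adjusted p = 0.0684 to 0.0853). Its head-to-head neighbour Col4a6 had at most 0.689 CPM and was not tested, nor were Col4a3 and Col4a4.

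Col4a1 and Col4a2 are transcribed away from each other. In the promoter windows their starts, 11312826 and 11312805, lie 21 bases apart. The gene coordinates given above place the start of Col4a1 elsewhere, at 11312889, and by these the gene bodies overlap by 85 bases. Because the counting strand is not given in the sources used here, reads from those bases cannot be told apart. Type VIII collagen, a short-chain network of vessel walls and the cornea, is encoded at separate places, Col8a1 on chromosome 16 (57624256 to 57754737) and Col8a2 on chromosome 4 (126286794 to 126314330). Col8a1 went from 1197, 1016 and 1318 to 726, 769.7 and 757 CPM (-0.65 ± 0.10 SE, adjusted p = 0.00245). Col8a2 went from 37.4, 37.2 and 47.3 to 12.2, 15.9 and 15.2 CPM (-1.49 ± 0.13 SE, adjusted p = 3.35e-04). Control replicate 3 was the highest library in both. The promoters are shown because partner genes with unequal log2 fold changes had alike motif counts. Each held 4 GC boxes (capitals, overlapping by some bases in Col8a2) and none of the other letters searched, at chr16:57754738-57754987 (minus strand) and chr4:126286544-126286792 (plus strand).
Col8a1: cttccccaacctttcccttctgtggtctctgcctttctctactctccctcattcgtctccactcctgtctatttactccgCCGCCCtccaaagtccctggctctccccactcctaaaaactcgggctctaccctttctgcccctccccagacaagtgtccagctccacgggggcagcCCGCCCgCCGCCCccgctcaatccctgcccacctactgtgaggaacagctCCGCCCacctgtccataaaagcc
Col8a2: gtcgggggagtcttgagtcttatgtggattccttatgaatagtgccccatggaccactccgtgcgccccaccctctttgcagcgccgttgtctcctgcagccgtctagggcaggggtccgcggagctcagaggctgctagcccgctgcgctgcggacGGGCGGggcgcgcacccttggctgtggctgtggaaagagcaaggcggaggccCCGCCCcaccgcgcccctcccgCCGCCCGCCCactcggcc
The difference between their falls was not tested. Col10a1, the collagen of hypertrophic cartilage, was lower as well, at 16.5, 13.8 and 12.7 CPM in controls and 4.94, 5.37 and 6.47 CPM with verapamil (-1.36 ± 0.14 SE, adjusted p = 5.40e-04).

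**Figure D2:**
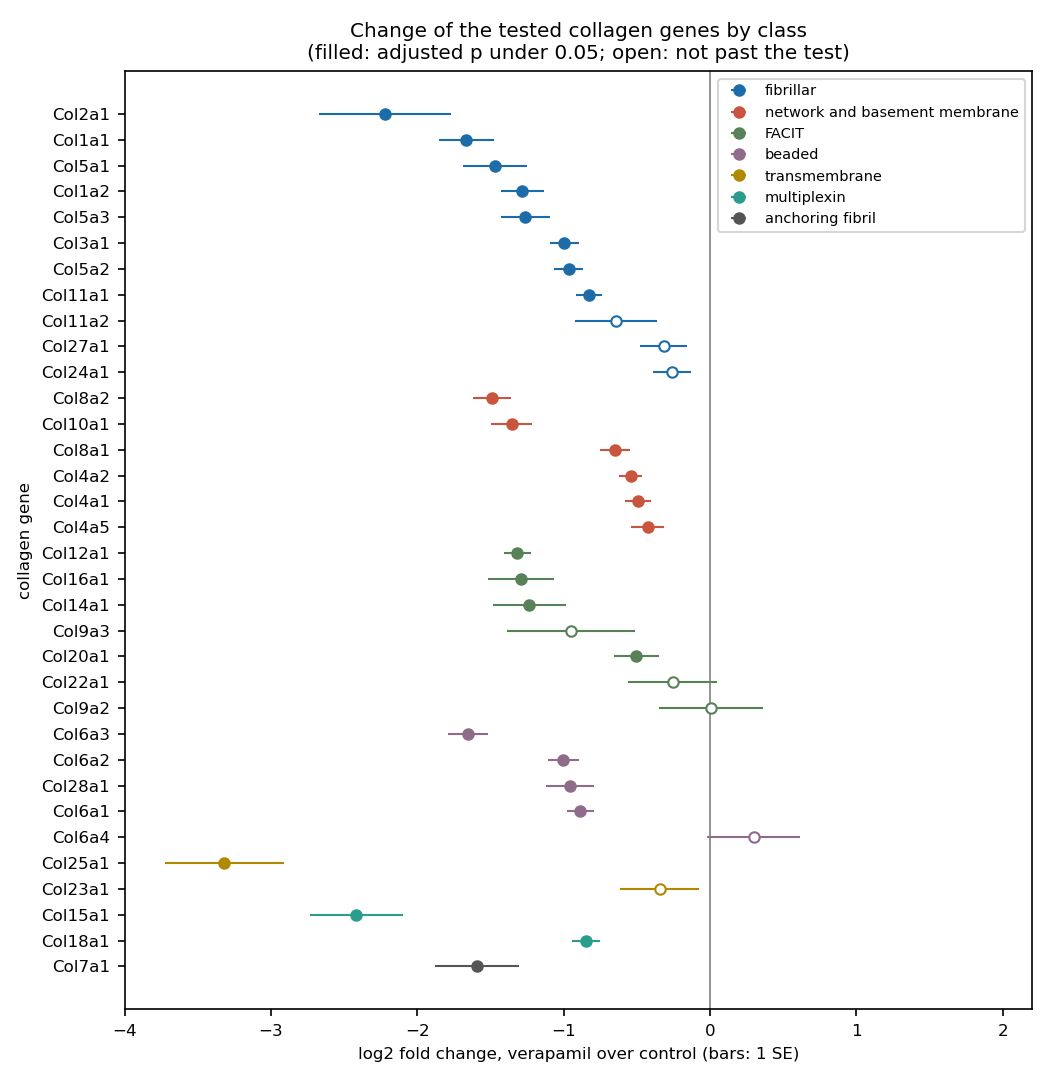
Log2 fold change of verapamil over control for the 34 tested collagen genes, ordered by class, with bars of 1 SE and filled points for an adjusted p under 0.05. All 26 filled points lie left of 0, from -3.32 in Col25a1 to -0.42 in Col4a5. Col25a1 reached the low-count filter's level in only 1 verapamil library. The point furthest left is -2.22 in the fibrillar class (blue, Col2a1), -1.49 in the network class (red, Col8a2) and -1.32 in the FACIT class (Col12a1).

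FACIT collagens sit on the surface of fibrils. Of 7 tested, 4 were lower and 3 did not pass, with a median of -0.95. Col12a1, which decorates type I fibrils in bone, tendon and ligament, was by far the most abundant of them, at 2665, 2342 and 2589 CPM in controls and 953, 1002 and 1096 CPM with verapamil (-1.32 ± 0.09 SE, adjusted p = 1.37e-04). It had the lowest adjusted p of the members, and here control replicate 2 was the lowest control. Col14a1, a close relative on the same fibrils, behaved alike in this respect at a much lower level, with 12.2, 6.57 and 8.41 CPM and 2.98, 4.56 and 3.95 CPM (-1.24 ± 0.25 SE, adjusted p = 0.00865). Col16a1, which occurs near fibrillin microfibrils and basement membranes, had its highest control in replicate 2, at 159, 259.9 and 147 CPM in controls against 70.8, 73.1 and 86.9 CPM (-1.29 ± 0.23 SE, adjusted p = 0.00782).

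Rarer FACIT members gave weaker or no calls. Col20a1 had 5.5, 6.52 and 6.52 CPM and 3.51, 4.56 and 4.94 CPM (-0.50 ± 0.15 SE, adjusted p = 0.0382), a call lost with library totals as the scaling or when control replicate 1, control replicate 3, verapamil replicate 1 or verapamil replicate 2 was left out (adjusted p = 0.0575 to 0.116). Type IX collagen, the FACIT of cartilage, was scarce: Col9a2 and Col9a3 were at most 1.01 CPM in any library and did not pass (log2 fold changes of 0.01 and -0.95), and Col9a1 was not tested. Col22a1, known from tissue junctions, was also near 1 CPM (-0.26 ± 0.31 SE) with overlapping groups. Col19a1 had at most 0.0902 CPM.

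Beaded-filament collagens link fibrils to cells. Type VI collagen is assembled from the products of Col6a1, Col6a2 and another chain, most often that of Col6a3. Of 5 tested members of this class 4 were lower, with a median of -0.96. Col6a3 (Entrez 12835, chromosome 1, 90766860 to 90844001) fell most, from 2395, 2844 and 2092 CPM to 723, 714 and 897 CPM (-1.65 ± 0.14 SE, adjusted p = 2.64e-04). Col6a1 gave 1505, 1823 and 1566 CPM and 834, 907 and 906 CPM (-0.89 ± 0.09 SE, adjusted p = 5.58e-04), and Col6a2 1436, 1820.5 and 1494 CPM and 737, 802 and 831 CPM (-1.0 ± 0.11 SE, adjusted p = 5.58e-04). In each of these genes control replicate 2 was highest and the groups stood clear of each other. Genes of the alternatives to Col6a3 were scarce. Col6a4 had 0.705, 0.427 and 0.919 CPM in controls and 0.744, 0.902 and 0.898 CPM with verapamil and did not pass (0.30 ± 0.32 SE, adjusted p = 0.512), while Col6a5 and Col6a6 were not tested. Col28a1, a collagen with domains like those of type VI, was lower at 7.66, 5.4 and 6.2 CPM against 2.92, 3.56 and 3.41 CPM (-0.96 ± 0.16 SE, adjusted p = 0.00393). Col26a1 was not tested.

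Transmembrane collagens were scarce. Col25a1, a membrane collagen known from neurons and developing muscle, had the largest fall of any member, from 6.76, 3.69 and 3.95 CPM in controls to 0.797, 0.226 and 0.449 CPM with verapamil (-3.32 ± 0.41 SE, adjusted p = 0.00109). These levels rest on 144, 69 and 86 counts in controls and 15, 5 and 10 with verapamil. Only 1 verapamil library reached the filter's level of 0.462 CPM, so the gene was tested because of its control level. Col23a1 had 1.5, 1.18 and 1.93 CPM and 1.12, 1.53 and 0.988 CPM and did not pass (-0.34 ± 0.27 SE, adjusted p = 0.367). Col13a1 and Col17a1, known from the neuromuscular junction and from the attachment plaques of skin, were at most 0.321 CPM in any library and were not tested.

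Multiplexins lie in basement membrane zones. Col15a1 (Entrez 12819, chromosome 4, 47207655 to 47313167) had the deepest fall among members above 5 CPM, from 74.4, 99.4 and 42.4 to 11.7, 13.6 and 15.0 CPM (-2.42 ± 0.32 SE, adjusted p = 0.00278). Its controls were spread widely, with replicate 2 the highest and replicate 3 the lowest, but all lay above the verapamil libraries. Col18a1, whose protein releases the fragment endostatin, was the more abundant, with 173, 200.4 and 156 CPM and 91.9, 97.0 and 106 CPM (-0.85 ± 0.10 SE, adjusted p = 7.47e-04). Col7a1, the collagen of the anchoring fibrils under skin, was lower too, at 15.6, 23.8 and 12.8 CPM against 5.1, 4.47 and 7.64 CPM (-1.59 ± 0.29 SE, adjusted p = 0.00715). As for the 10 untested members, none exceeded 0.689 CPM in any library.

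Per kilobase of transcript, the order of the chains differed between the groups. In the controls Col1a1 and Col1a2 (2878 and 2745 CPM per kilobase, mean of 3) were followed by Col3a1 (709.6), Col6a1 (398), Col5a2 (378), Col6a2 (340.3) and Col5a1 (326). Col6a3, Col8a1, Col4a1 and Col12a1 lay close together after them (242, 230.4, 222 and 220.0). With verapamil, Col1a2 (1128) stood above Col1a1 (908), and Col4a1 (158) and Col8a1 (147) stood above Col5a1 (118), Col12a1 (88.3) and Col6a3 (77.0). Neighbours in the control order whose means differ by less than the spread between controls, such as Col8a1 and Col4a1, are not separated by these data.

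Collagen transcripts took up a smaller part of each verapamil library. All 44 members together made up 4.85, 6.03 and 4.85% of the counts in control replicates 1 to 3 and 2.15, 2.19 and 2.5% in verapamil replicates 1 to 3. Means were 5.24 ± 0.682% and 2.28 ± 0.192% (SD, n = 3; two-sided exact permutation test, p = 0.1, the smallest that 3 against 3 can give). Leaving out Col1a1, Col1a2 and Col3a1, the remaining members held 1.74, 1.93 and 1.7% and 0.847, 0.88 and 0.978%, so the groups were also apart without the 3 most abundant chains. TMM factors play no part in these shares, but each share depends on the library total and so on all other transcripts.

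Within the collagen counts, fibrillar chains had a smaller share and network chains a larger share in every verapamil library than in any control. Fibrillar chains were 75.7, 79.9 and 75.7% of collagen counts in controls and 72.5, 71.8 and 73.2% with verapamil. Network and basement membrane chains were 7.15, 5.53 and 7.44% and 11, 11.2 and 10.5%. For both classes, no p under 0.05 is possible with 3 against 3 (exact permutation test, p = 0.1 each, 0.233 adjusted over 7 classes). Without Col1a1 and Col1a2 in the pool, fibrillar chains were 43.96, 47.4 and 44.1% in controls and 42.8, 43.1 and 43.98% with verapamil, groups that overlapped, and their difference went from -4.61 to -1.85 percentage points. Network chains were then 16.5, 14.4 and 17.1% and 22.8, 22.6 and 22.0%, still without overlap. Beaded chains were 10.8, 10.0 and 10.7% and 11, 11.4 and 10.8%, with closest values of 10.82% and 10.85% and the same p, but in the smaller pool their difference turned from 0.57 to -2.43 percentage points. For FACIT chains the groups overlapped (5.76, 4.05 and 5.7% and 4.96, 5.09 and 4.91%, p = 1, exact permutation test), and the sign of their difference turned without control replicate 1 or 3. The 3 smallest classes together held under 1% in every library. Counts divided by transcript length kept the network difference at 3.99 percentage points, against 4.2 in counts.

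**Figure D3:**
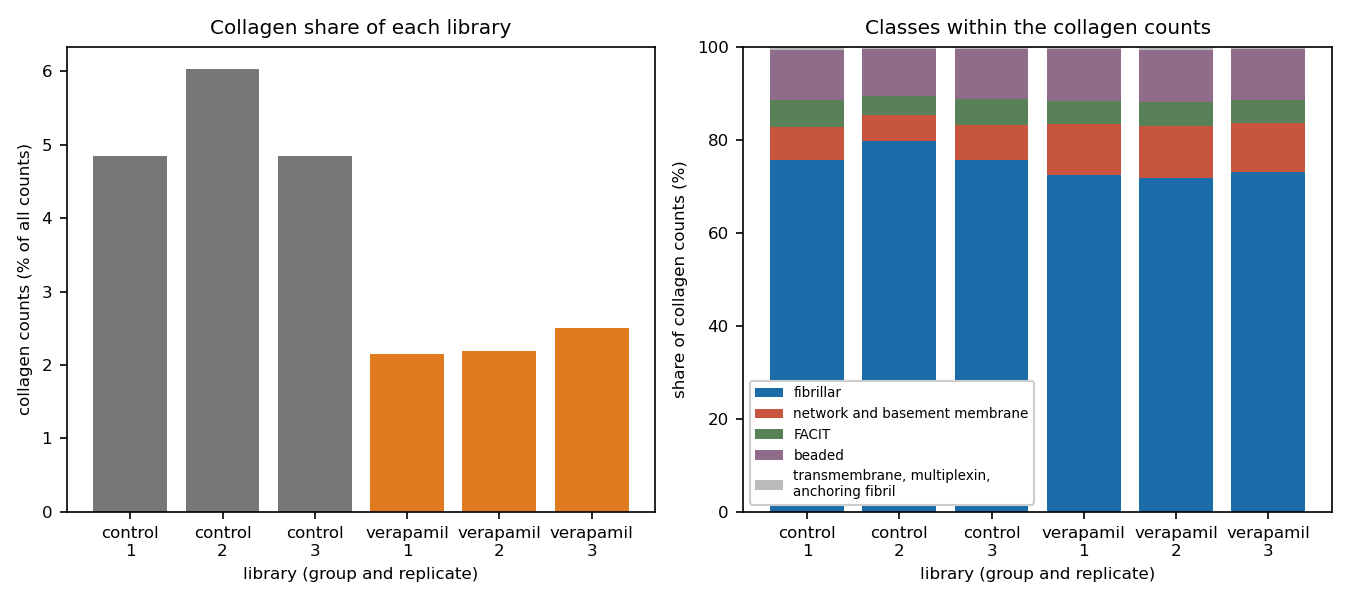
Left, collagen counts as a percentage of all counts in each library; right, the share of each class among collagen counts in each library, stacked to 100%. Collagen bars are 4.85% to 6.03% in controls (grey) and 2.15% to 2.50% in verapamil libraries (orange), and the network band (red) is wider in the verapamil libraries.

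Genes whose chains assemble together had unequal log2 fold changes in some pairs. The ratio of Col1a1 to Col1a2 counts was 1.13, 1.25 and 1.08 in controls and 0.900, 0.878 and 0.899 with verapamil, so that Col1a1 had more counts in every control and Col1a2 in every verapamil library. The log2 ratio differed by -0.37, and the SD was 0.11 in controls and 0.020 with verapamil (exact permutation test, p = 0.1, adjusted over 3 ratios 0.15). Divided by transcript length, this ratio was 1.02, 1.13 and 0.972 and 0.812, 0.792 and 0.811. Of the collagen counts, Col1a2 held 26.6, 27.4 and 27.2% in controls and 27.3, 26.8 and 27.5% with verapamil, while Col1a1 held 30.1, 34.3 and 29.3% and 24.6, 23.5 and 24.7%. In the type I trimer, chains from Col1a1 outnumber that from Col1a2, and these RNA ratios say nothing of the protein made.

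For Col4a1 to Col4a2 the ratio was 1.81, 1.78 and 1.81 in controls and 1.81, 1.86 and 1.91 with verapamil, and verapamil replicate 1 lay level with control replicates 1 and 3 (log2 difference 0.05, exact permutation p = 0.2, adjusted 0.2). Col6a1 and Col6a2, neighbours 85161 bases apart on chromosome 10, had ratios of 1.05, 1.0 and 1.05 and 1.13, 1.13 and 1.09, a small shift without overlap (log2 difference 0.11, exact permutation p = 0.1, adjusted 0.15). Further ratios were chosen after the values were seen and carry no test. Col6a3 to Col6a1 went from 1.59, 1.56 and 1.34 to 0.867, 0.787 and 0.99, so Col6a3 had more counts than its partner in every control and fewer in every verapamil library. Col5a1 to Col5a2 went from 0.989, 1.36 and 0.893 to 0.775, 0.732 and 0.803, and Col8a2 to Col8a1 from 0.0312, 0.0366 and 0.0359 to 0.0168, 0.0206 and 0.0201. Another pair of neighbours, Col3a1 and Col5a2 on chromosome 1 with 24624 bases between them, had log2 fold changes of -1.0 and -0.97.

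**Figure D4:**
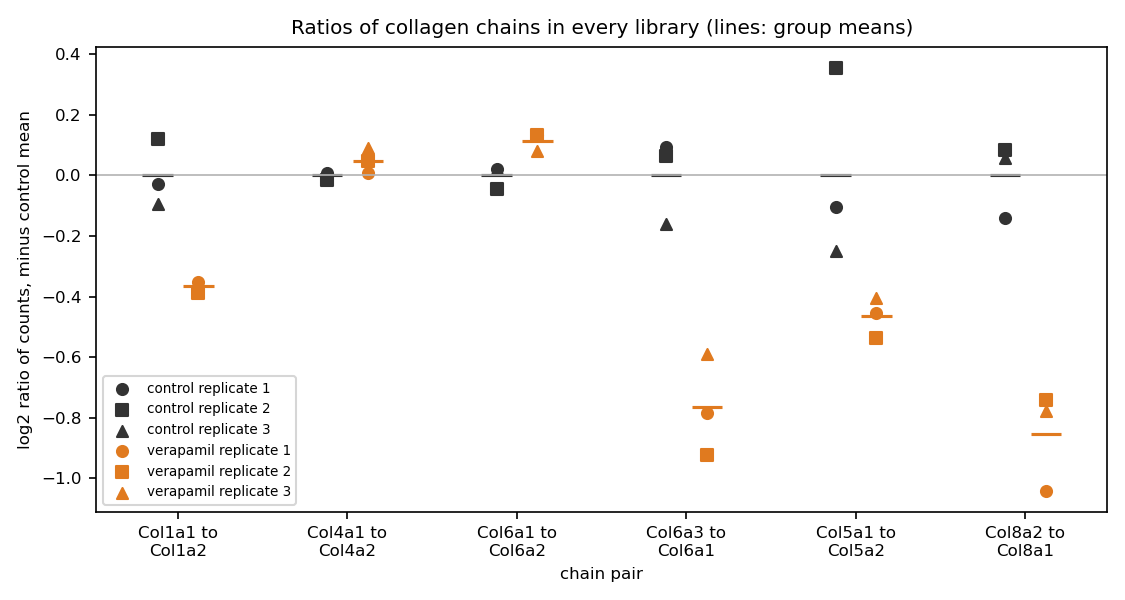
Log2 ratio of the counts of 6 chain pairs in each library, with the control mean of each pair set to 0, 1 point per library and lines at group means; black is control and orange verapamil. The Col4a1 to Col4a2 ratio moved by 0.05, Col1a1 to Col1a2 by -0.37 and Col6a3 to Col6a1 by -0.77.

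Among the controls, collagen genes differed in how replicate 2, the library with the highest hypoxia-response level, compared with replicates 1 and 3. Of the 26 lower members, replicate 2 was the highest control in 16, the lowest in 8 and between the others in 2. Over all 2180 genes lower with verapamil it was the highest control in 60.8% and the lowest in 20.2%. By class it was highest in 7 of 8 fibrillar members, 3 of 4 beaded members, both multiplexins and the anchoring fibril member, and in 2 of 6 network members, 1 of 4 FACIT members and not in the transmembrane member. Its level over the mean of the other controls was 2.6 for Col2a1, 1.7 for Col15a1, 1.7 for Col16a1 and 1.66 for Col5a1, and 0.639 for Col14a1, 0.688 for Col25a1 and 0.808 for Col8a1. Without this library 27 members were lower and 0 higher. The spread was wider in controls than in verapamil libraries for 18 of the 26, with a median coefficient of variation of 13.9% and 10.7%. Whether the hypoxia-response level plays a part in these values was not tested.

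**Figure D5:**
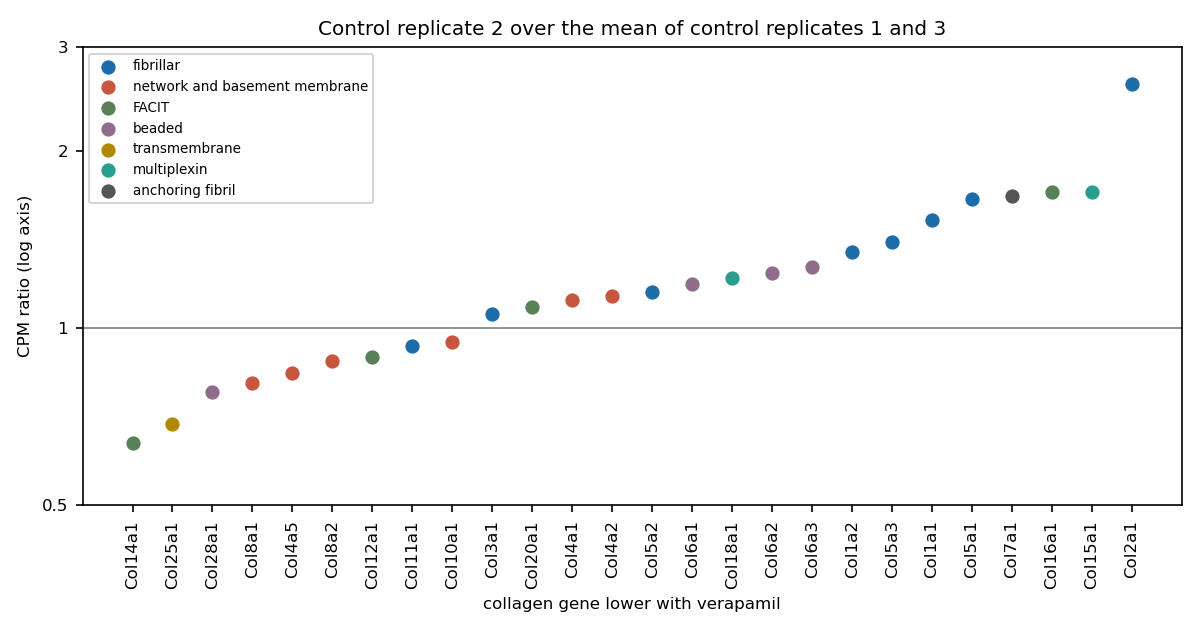
CPM in control replicate 2 divided by the mean of control replicates 1 and 3, on a log axis, for the 26 collagen genes lower with verapamil, coloured by class and sorted. Values run from 0.64 in Col14a1 to 2.60 in Col2a1, with 7 of 8 fibrillar genes (blue) above 1. Over all 2180 genes lower with verapamil, control replicate 2 was the highest control in 60.8%.

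Genes that fold, trim, bind and degrade collagen were taken from 4 lists. For comparison with the counts below, 16.3% of all tested genes were lower and 15.4% were higher. In the list for folding and modification in the endoplasmic reticulum, 17 of 21 tested genes were lower and 4 did not pass, with a median log2 fold change of -0.58. Examples were the prolyl hydroxylase subunits P4ha2 (-1.57) and P4ha1 (-1.21), which stabilise the helix, and Creb3l1 (-1.05), a transcription factor of collagen secretion. Unlike these, the lysyl hydroxylase Plod1 (-0.15) and the cyclophilin Ppib (-0.26) did not pass. For propeptide cleavage and cross-linking, 8 of 13 were lower and 5 did not pass, with a median of -0.56, led by the cross-linking oxidases Lox (-1.29), Loxl4 (-1.10) and Loxl2 (-1.03). All genes of each list summed to 5346 to 7619 and 7016 to 11590.5 CPM in controls and to 3945 to 4218 and 4153 to 4596 CPM with verapamil, with control replicate 2 the highest library in each.

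Of 10 collagen receptors and uptake genes, 7 were lower, 1 was higher and 2 did not pass, with a median of -0.50. The integrin chain gene Itga10, for a receptor of cartilage and bone collagens, fell most (-1.26), followed by Itga2 (-0.67) and Itgb1 (-0.58). The member that rose was Lair1 (0.48), an inhibitory collagen receptor of leukocytes, in libraries whose macrophage markers were also higher. Among 9 tested genes of collagen degradation, 5 were lower, 2 were higher and 2 did not pass, with a median of -0.18. Mmp8, a collagenase of neutrophils, rose (1.79), as did the lysosomal protease Ctsb (0.59), while the gelatinase Mmp2 (-0.70) and the fibroblast protease Fap (-0.66) fell. Mmp8 was scarce, with means of 3.30 CPM in controls and 11.5 CPM with verapamil. Mmp13 (3110 and 2463 CPM, -0.34) and Mmp14 (1452 and 936 CPM, -0.63) were far more abundant and were lower. The degradation list summed to 11762 to 13022 CPM in controls and 13516 to 14059 CPM with verapamil. Ctsb made up much of these sums, with 5463, 5461 and 6244 CPM in controls and 8613, 8965 and 8328 CPM with verapamil, a larger increase than that of the list as a whole.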

How the data were processed

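The authors deposited 1 table of estimated counts per gene and library (read counts per the file headers), not scaled to depth or gene length; 67.7% of values are not whole. The build is GRCm38, also called mm10, per the submitters' processing notes. Which aligner, counter, annotation and strand setting were used is not given in the sources used here. The columns were tied to libraries by their labels. Counts were rounded to whole numbers, filtered with filterByExpr (minimum count 10, minimum total 15; 13366 of 17491 genes kept) and scaled with TMM factors. All genes were fitted in edgeR 4.0.16 (R 4.3.3; robust quasi-likelihood), with Benjamini-Hochberg adjustment over all of them and a threshold of 0.05. SE was taken from the F statistic, as |log2 fold change|/√F. The fit was tested on 5 simulated data sets, in which far fewer genes were changed than were called in the data. On average 7.46% of all calls there were false, above the threshold, and only part of the changes put in were recovered. Replicates differed by more than sampling noise (chi-square per degree of freedom 3.49 to 47.8), so none were merged. The mean log2 CPM of the hypoxia list used a prior count of 2. Shares and ratios used rounded counts and two-sided exact permutation tests. Lengths are those of the longest coding transcripts of GENCODE and coordinates those of RefSeq (GRCm38), found for all 44 members. Members, classes and lists were chosen with earlier results of these data known. Values were given for all tested members, while the 10 untested members were given by upper limits. From each companion list, values were given for up to 3 genes past the test with the largest change. Plod1, Ppib, Lair1, Ctsb, Mmp13 and Mmp14 beyond these, the further ratios, and the promoters of Col8a1 and Col8a2 were chosen after their values were seen. Alternatives used DESeq2 1.42.0, limma 3.58.1, other scalings, filters and thresholds, a block for the replicate number and fits without each library.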

Additional observations from a re-analysis of the deposited data

How the results depend on the processing

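Lower members numbered 23 to 27 and higher members 0 under every alternative run: other scaling factors, other filters (27 of 44 tested with none, 25 of 27 at 5 CPM in 3 libraries), DESeq2, limma-voom, thresholds of 0.01 and 0.10, counts without rounding, and each library left out. The share of all tested genes called moved more widely, from 14.7% at a threshold of 0.01 to 41.3% at 0.10, against 31.7% as reported. It was 22.8% with no filter, 35.4% at 5 CPM, 29.7% by DESeq2, 31.5% by limma-voom, 31.6% to 33.2% with other scalings and 16.6% to 37.4% with a library left out. With the replicate number as a block 26 were lower and 22.1% of all genes were called. In the labels, same-numbered libraries share only a number. Their deviations correlated at 0.01, -0.17 and -0.13 for replicates 1, 2 and 3, against -0.06 to 0.15 for libraries with unlike numbers. These values cannot show whether same-numbered libraries were paired. Signs turned for 2 scarce genes that never passed: with each library left out, Col22a1 ran from -0.50 to 0.023 and Col9a2 from -0.24 to 0.37. Without Col1a1, Col1a2 and Col3a1 the collagen share of all counts differed by -0.886 percentage points. Dropping Col1a1 and Col1a2 changes the pool itself, and gave differences in class shares of -1.85 (fibrillar), 6.44 (network), -2.06 (FACIT), -2.43 (beaded), -0.0135 (transmembrane), -0.0661 (multiplexin) and -0.0238 (anchoring fibril). The beaded difference was 1.47 with counts divided by transcript length, and the FACIT difference ran from -0.745 to 0.109 with each library left out. Under about 1 CPM depth limits what can be seen, and 10 members were not tested.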
